A study of Mus musculus with 4 samples.

Results

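The stress keratins examined here are Krt6a, Krt6b, Krt16 and Krt17, with their relatives Krt75 and Krt76. A gene counted as measured where a probe set carried its symbol alone in the platform annotation, and where several did, the brightest on average over the 4 arrays stood for it. All 6 genes were found, out of 19938 named genes on 35556 probe sets. Each of them had exactly 1 such probe set and none shared a probe set with another named gene, so that no choice between probe sets was needed.

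The samples were mouse epidermis cut by laser from sections of hairless hindpaw skin. Both transgenes were driven by the K14 promoter, which is active in basal keratinocytes. The noggin mice overexpressed noggin, an extracellular protein that binds BMPs and blocks them, and the BMP4 mice overexpressed the ligand BMP4. Strips from 6 animals of each line were combined into pools of 3 animals, which gave 2 noggin arrays and 2 BMP4 arrays. The labels and files do not state the strain, age or sex of the mice. No array of epidermis without a transgene was analysed here, so every difference below lies between the 2 lines and cannot be assigned to either of them. Values are log2 probe set intensities, and differences are noggin minus BMP4 in log2 units.

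Keratins are the filament proteins of epithelial cells, built from obligate pairs of a type I and a type II chain. Resting epidermis makes Krt5 with Krt14 in its basal layer and Krt1 with Krt10 above it. Krt6a, Krt6b, Krt16 and Krt17 are largely absent from resting haired epidermis and are switched on within hours of wounding, in psoriasis and in other hyperproliferative states, which gave them the name of stress or wound-activated keratins. They are also made without injury where skin bears friction or forms appendages, namely in footpad epidermis, the nail bed and the outer and companion layers of the hair follicle. In people, mutations in KRT6A, KRT6B, KRT16 or KRT17 cause pachyonychia congenita, with thickened nails and painful sole keratoderma.

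The captured tissue had the keratins of footpad epidermis. Krt9, the keratin restricted to palm and sole skin, had log2 values of 13.39 and 13.29 in noggin and 13.44 and 13.28 in BMP4, near the top of arrays whose upper quartiles lay between 7.66 and 7.71. Nog, the transgene of the noggin line, was not higher there. Both Nog and Bmp4 had every BMP4 value above every noggin value, as in 17.9% of named genes. The limma unadjusted p was 0.222 for Nog (adjusted p = 0.946) and 0.0495 for Bmp4 (adjusted p = 0.874). Nog averaged 5.95 ± 0.048 in noggin and 6.09 ± 0.062 in BMP4, and Bmp4 averaged 7.81 ± 0.063 in noggin and 8.13 ± 0.14 in BMP4 (SD, n = 2 each). The labels and files do not state whether these probe sets cover the transgene sequence, so they do not check the labels. BMP4 replicate 1 stood apart. In that array 43 genes lay more than 1 log2 unit above, and 44 more than 1 unit below, all 3 other arrays, against at most 13 in either direction for each of the others.

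Of the 6 genes, Krt6a, Krt6b and Krt16 had every noggin value below every BMP4 value. Krt17 and Krt75 had a lower mean in noggin with overlapping groups, and the means of Krt76 were 0.0071 apart. The median difference of the 6 was -0.45, against -0.0064 over all named genes, or -0.24 with BMP4 replicate 1 left out and -0.68 with BMP4 replicate 2 left out. None passed the test, which is limma with Benjamini-Hochberg adjustment over all 35556 probe sets and a threshold of 0.05. That test called 0 probe sets (0%) in either direction, and with 2 arrays a group the smallest two-sided p that an exact permutation test of a single gene allows is 0.333. The 3 genes whose groups did not overlap stand against 17.9% of named genes in which the same was seen. The 5 genes with a lower mean in noggin stand against 52.2% of named genes.

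**Figure D1:**
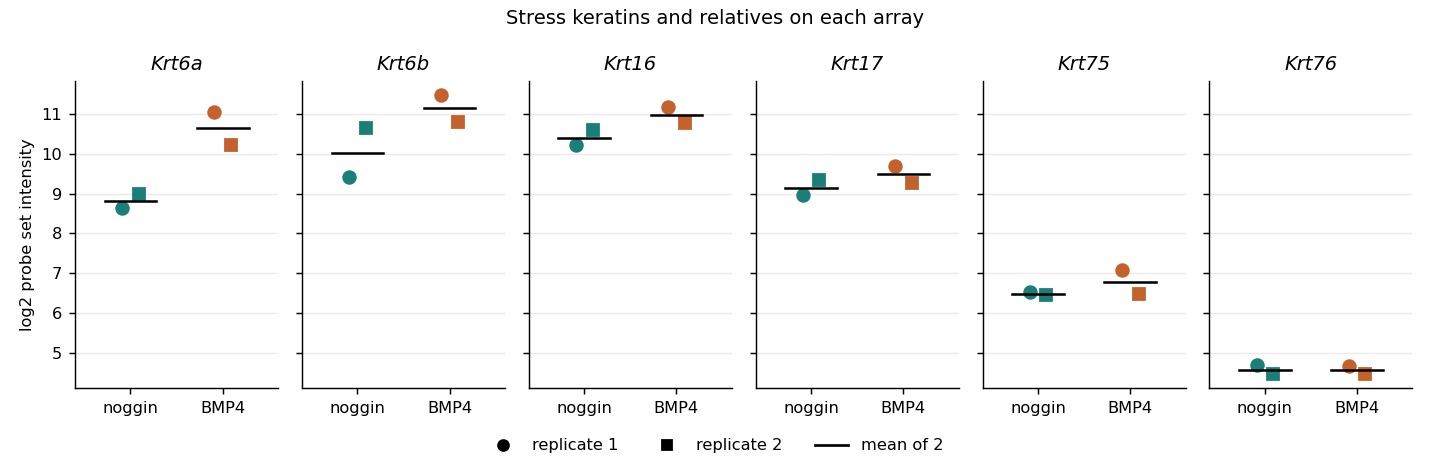
Log2 probe set intensity (y axis) of Krt6a, Krt6b, Krt16, Krt17, Krt75 and Krt76 in noggin and BMP4 epidermis. Circles are replicate 1, squares replicate 2, and bars the mean of 2 arrays. The gap between the groups is widest for Krt6a, where the higher noggin array is at 8.99 and the lower BMP4 array at 10.23.

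Krt6a and Krt6b are, like Krt75 and Krt76, type II chains, and are close copies that lie side by side in the keratin cluster and pair with Krt16 or Krt17. Krt6a had log2 values of 8.65 and 8.99 in noggin, against 11.05 and 10.23 in BMP4. The empty gap between the groups was 1.24, wider than the 0.34 between the noggin arrays and the 0.82 between the BMP4 arrays. The mean was 8.82 ± 0.24 in noggin and 10.64 ± 0.58 in BMP4 (SD, n = 2 each). The difference was -1.82 ± 0.32 (SE), with a 95% interval from -2.70 to -0.94, and the noggin-to-BMP4 ratio was 0.283. Its unadjusted limma p of 0.00449 became 0.732 after adjustment. Among all named genes 34, Krt6a included, differed by at least as much in either direction, and it held place 59 by p. Krt6a was the only one of the 6 at an unadjusted p below 0.05, a level that 2.10% of named genes reached with a lower value in noggin and 2.18% with a higher one. Leaving out any 1 array kept the difference of Krt6a between -2.23 and -1.41. This was within 1.5 times of its value over all arrays, which held for none of the other 5 genes. Such a ratio is easier to keep for a large difference. In log2 units the difference of Krt6a moved less than that of Krt6b, but more than those of Krt16, Krt17, Krt75 and Krt76.

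Krt6b had log2 values of 9.42 and 10.64 in noggin, against 11.48 and 10.81 in BMP4. Here the noggin arrays were 1.22 apart, and the gap between the groups was only 0.17. The mean was 10.03 ± 0.86 in noggin and 11.15 ± 0.47 in BMP4 (SD, n = 2 each), a difference of -1.12 ± 0.49 (SE). Its 95% interval ran between -2.48 and 0.25 (limma, adjusted p = 0.912). The size of this difference rested on the noggin arrays. On leaving out noggin replicate 1 it was -0.51, and on leaving out noggin replicate 2 it was -1.73. Krt6a and Krt6b were the only members lower by at least 1 log2 unit in noggin, as were 0.306% of named genes.

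The 2 copies parted in noggin replicate 2. There Krt6a lay 0.74 below its own mean over the 4 arrays (-0.74), whereas Krt6b was at its own mean (0.05). In noggin replicate 1 both were low, at -1.08 for Krt6a and -1.17 for Krt6b. In BMP4 they were high on both arrays, at 1.32 and 0.50 for Krt6a and at 0.89 and 0.22 for Krt6b. The difference of Krt6a exceeded that of Krt6b by -0.70, which was not tested across features. Because the genes are near-identical copies, probes of either set could bind both transcripts, and the files do not say which probes are shared. Separate values for Krt6a and Krt6b are uncertain to that extent.

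**Figure D2:**
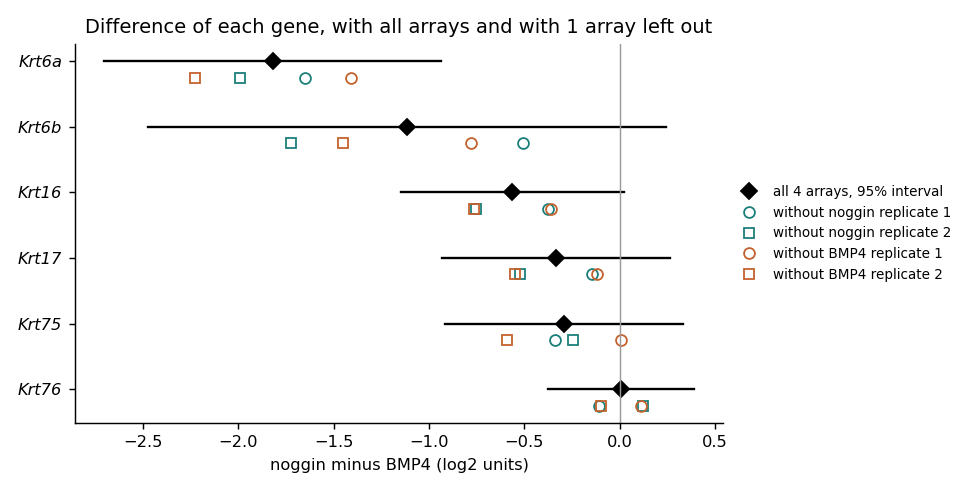
Difference of each gene, noggin minus BMP4 in log2 units (x axis). Diamonds and lines give the difference over all 4 arrays with its 95% interval from limma, and open symbols give the difference with the array named in the legend left out. All 5 estimates of Krt6a lie at or below -1.41, while the interval of each other gene includes 0.

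Krt16 and Krt17 are the type I chains. Krt16 is the usual partner of Krt6a in wounded and sole epidermis. Its log2 values were 10.22 and 10.59 in noggin, against 11.17 and 10.76 in BMP4. The groups did not overlap, but the gap between them, 0.17, was smaller than the 0.38 between the noggin arrays and the 0.41 between the BMP4 arrays. The mean was 10.41 ± 0.27 in noggin and 10.97 ± 0.29 in BMP4 (SD, n = 2 each). The difference of -0.56 ± 0.21 (SE) had a 95% interval between -1.15 and 0.021 (limma, adjusted p = 0.874). It was -0.36 without BMP4 replicate 1 and -0.37 without noggin replicate 1. The difference of Krt6a went beyond that of its partner by -1.26, again untested.

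Krt17 is an early wound keratin that is also made in the outer root sheath, nail bed and gland myoepithelium. It had log2 values of 8.96 and 9.34 in noggin, against 9.70 and 9.27 in BMP4. The groups overlapped, since noggin replicate 2 lay above BMP4 replicate 2. The mean was 9.15 ± 0.27 in noggin and 9.49 ± 0.31 in BMP4 (SD, n = 2 each), a difference of -0.34 ± 0.22 (SE) and a 95% interval between -0.93 and 0.26 (limma, adjusted p = 0.946). Leaving out any 1 of the 4 arrays moved it by more than 1.5 times, to -0.12 without BMP4 replicate 1, -0.15 without noggin replicate 1, -0.52 without noggin replicate 2 and -0.55 without BMP4 replicate 2. Its array profile was close to that of Krt16. The root mean square distance between the 2 profiles, each taken relative to its own mean, was 0.11 log2 units, the smallest of the 15 distances among the 6 genes, against 0.47 between Krt6a and Krt6b. The measure is not scaled, so it also depends on the size of the differences, which were larger for Krt6a and Krt6b.

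Krt75 is a type II keratin of the companion layer of the hair follicle and of the nail bed, a sequence relative of Krt6a. Its log2 values were 6.53 and 6.44 in noggin, against 7.08 and 6.48 in BMP4. BMP4 replicate 1 alone was high, and the other 3 arrays lay within 0.1 of each other. The difference was -0.29 ± 0.23 (SE), its 95% interval lying between -0.92 and 0.33 (limma, adjusted p = 0.951). Leaving out BMP4 replicate 1 gave 0.0075, and leaving out BMP4 replicate 2 gave -0.59.

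Krt76 is a type II keratin known from the oral mucosa, the palate above all. Its log2 values were 4.69 and 4.46 in noggin, against 4.68 and 4.46 in BMP4, all below the lower quartiles of the arrays, which lay between 4.71 and 4.72. The difference was 0.0071 ± 0.14 (SE), its 95% interval lying between -0.38 and 0.39 (limma, adjusted p = 1). The files hold no detection calls, so whether Krt76 was above background is unknown.

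The order of the arrays was the same for 3 of the 6 genes. Krt6a, Krt6b and Krt16 were each highest in BMP4 replicate 1, then BMP4 replicate 2, noggin replicate 2 and noggin replicate 1. Krt17 differed from this order only in that noggin replicate 2 and BMP4 replicate 2 changed places. Krt75 was also highest in BMP4 replicate 1, followed by noggin replicate 1, BMP4 replicate 2 and noggin replicate 2, and Krt76 was highest in noggin replicate 1. All 6 genes were read on the same 4 arrays, so a shared order is no separate observation for each gene. In bulk tissue, fewer cells making a keratin and less of it in each cell cannot be told apart.

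**Figure D3:**
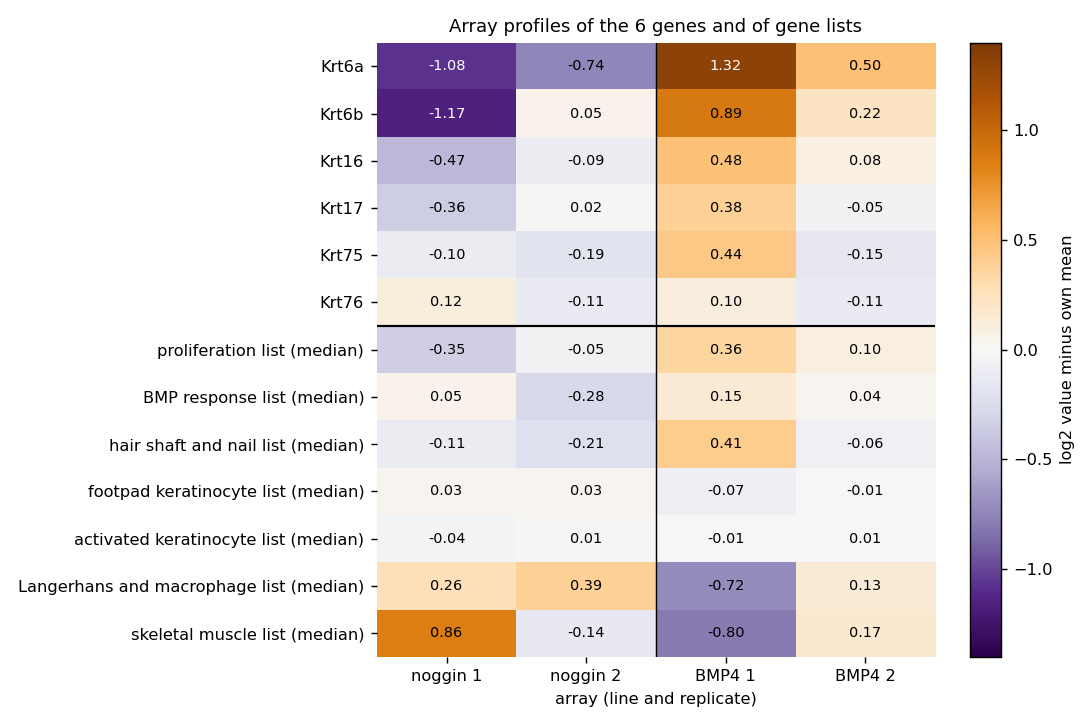
Log2 value of each gene on each array relative to its own mean over the 4 arrays (upper rows), and the same for the median gene of 7 lists (lower rows). Columns are the arrays, the colour scale is in log2 units and the printed figures are the values. Krt6a, Krt6b and Krt16 run from noggin replicate 1 at the low end to BMP4 replicate 1 at the high end, as does the proliferation list, while the footpad keratinocyte list stays within 0.07 of 0.

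Stress keratins lie inside 2 gene clusters, the type II cluster on chromosome 15 and the type I cluster on chromosome 11 of the mouse, in the order given by the RefSeq gene table of GRCm38.p6. Of the 46 other keratin genes measured in both clusters, 37 averaged lower in noggin, against 52.2% of named genes. In 17 of the 46 the groups did not overlap in that direction, against 17.9% of named genes. Several of the 17, Krt28 and Krt40 among them, lay below the array medians on every array. The median difference of the 46 was -0.091. In 2 of the 46, Krt26 and Krt10, the noggin values were all above the BMP4 values, as in 15.7% of named genes. The next gene to Krt6a on its other side, the basal keratin Krt5, had log2 values of 12.37 and 12.52 in noggin and 12.58 and 12.52 in BMP4, a difference of -0.10. Krt14, the basal partner of Krt5 and the next keratin gene to Krt16, differed by -0.14, at 12.25 and 12.25 in noggin against 12.42 and 12.36 in BMP4. Krt42, the next keratin gene to Krt17 and its close relative, differed by -0.03, and by between -0.14 and 0.09 with 1 array left out.

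**Figure D4:**
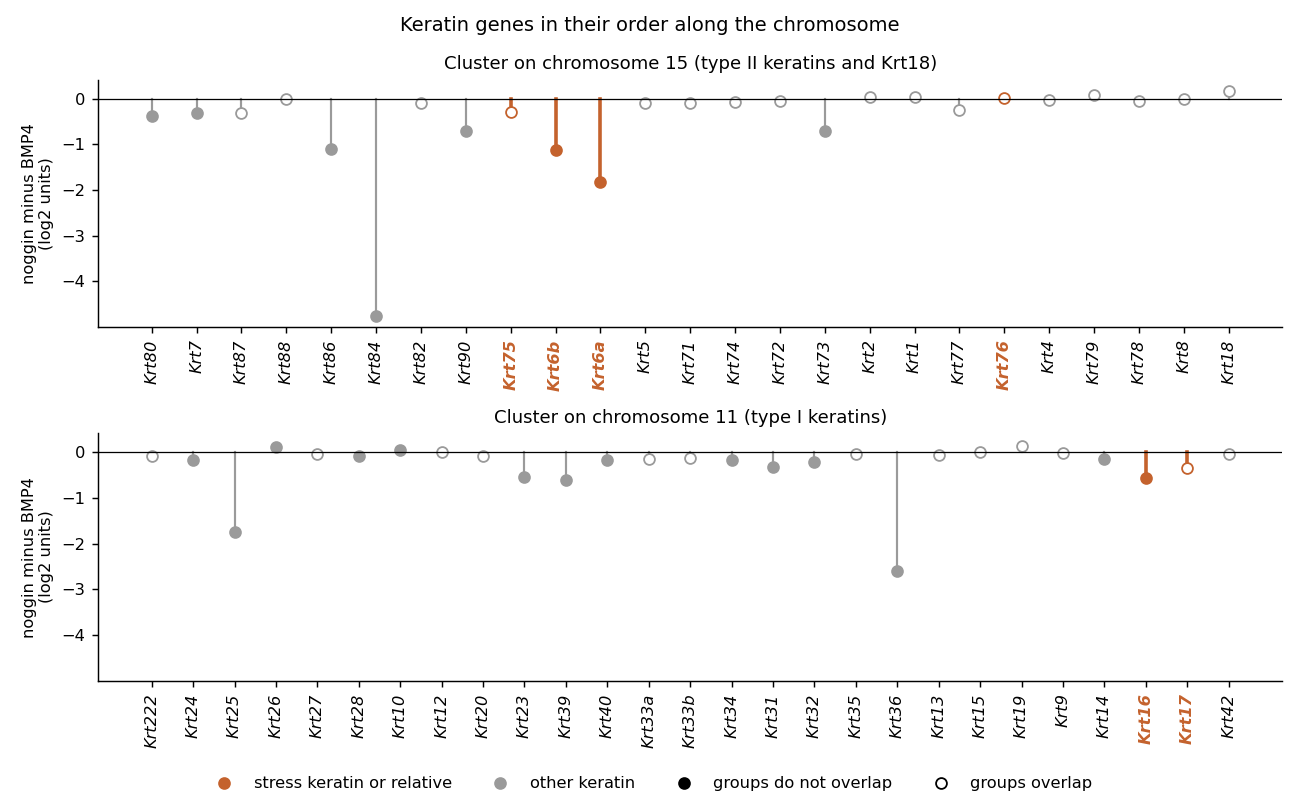
Difference of each measured keratin gene, noggin minus BMP4 in log2 units (y axis), in the order of the genes along the chromosome 15 cluster (upper panel) and the chromosome 11 cluster (lower panel). Orange marks the 6 stress keratins and relatives, grey the other keratins, filled points genes whose groups do not overlap and open points genes whose groups overlap. Krt6a and Krt6b stand beside Krt5, at -0.10, and the lowest points are the hair-type keratins Krt84 and Krt36.

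The keratins of the normal footpad layers lay closer to 0 than Krt6a did, though Krt23 and Krt80 lay further from 0 than Krt17 and Krt75. Among 12 listed keratins of epidermis other than the members, 7 averaged lower and 5 higher in noggin, and the median difference was -0.039, which changed sign to 0.032 without noggin replicate 2 and was -0.11 without noggin replicate 1. The suprabasal keratins Krt1, Krt10 and Krt2 and the sole keratin Krt9 differed by between -0.02 and 0.05. Their log2 values lay between 12.96 and 13.44, and whether differences are compressed in such bright probe sets was not tested. The furthest were Krt23, at -0.54 (9.16 and 9.05 in noggin, 10.03 and 9.27 in BMP4) and between -0.92 and -0.16 with 1 array left out, and Krt80, a keratin of late differentiation, at -0.39 (10.67 and 10.42 in noggin, 10.90 and 10.97 in BMP4). Sets of 6 marker genes for suprabasal and footpad keratinocytes and 7 for basal keratinocytes had medians of 0.031 and -0.10.

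Keratins of hair shaft and root sheath were, like Krt6a, mostly lower in noggin, and the furthest of them differed widely between the BMP4 arrays. Of 20 measured, 19 averaged lower in noggin, against 52.2% of named genes. For 11 of them the groups did not overlap, against 17.9% of named genes in that direction. Several of these 11 lay below the array medians, between 6.04 and 6.06, on every array, and whether they were above background is unknown. Among them were Krt28, at 4.51 and 4.50 in noggin against 4.55 and 4.62 in BMP4, and Krt40, at 5.08 and 5.19 against 5.24 and 5.34. The median difference of the list was -0.15, or -0.24 without noggin replicate 1. Krt84, a hair-type keratin, had log2 values of 5.47 and 5.71 in noggin against 11.60 and 9.09 in BMP4. Krt36, another hair-type keratin, had 5.54 and 5.42 in noggin against 9.50 and 6.64 in BMP4, and its difference of -2.59 lay between -4.02 and -1.16 when either BMP4 array was left out. Krt25, an inner root sheath keratin, had 5.57 and 5.45 in noggin against 7.72 and 6.80 in BMP4. All 11 measured markers of hair shaft and nail averaged lower in noggin, though Krt31, Krt33a, Krt34 and Krt35 lay below the array medians on every array. Their summed intensity, on the linear scale, was 980 and 894 in noggin against 5052 and 1510 in BMP4, and without BMP4 replicate 1 their median difference was -0.13 in place of -0.32, while without BMP4 replicate 2 it was -0.56. Krt6a, Krt6b, Krt16, Krt17 and Krt75 are also made in nail and follicle epithelium, and the part of such tissue in their values was not tested. The companion layer and follicle list, 13 genes that include Krt75 and Krt17, had a median difference of -0.11, with summed intensities of 5224 and 5619 in noggin against 5833 and 5315 in BMP4. That median was 0.0074 without noggin replicate 2, with the sign turned, and -0.28 without noggin replicate 1. Most of each sum came from a single bright gene that differed by 0.00075, so the sums say little about the other genes of the list.

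Proliferation genes, which are raised in the same hyperproliferative states as Krt6 and Krt16, averaged lower in noggin for all 24 measured, 17 of them without overlap. Over all named genes, 52.2% averaged lower in noggin and 17.9% had no overlap in that direction. The median difference of the 24 was -0.48, or -0.26 with noggin replicate 1 left out and -0.31 with BMP4 replicate 1 left out. None was called, the smallest adjusted p being 0.636 (limma). Prc1, a cytokinesis gene, had 7.11 and 7.54 in noggin against 8.32 and 8.17 in BMP4. Foxm1, a transcription factor of mitotic genes, had 6.44 and 6.34 in noggin against 7.40 and 7.24 in BMP4. The list's median, relative to each gene's own mean, was -0.35 and -0.05 in noggin against 0.36 and 0.10 in BMP4, the order of the arrays seen in Krt6a, Krt6b and Krt16. The share of dividing cells in the values of the keratins was not tested.

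The named genes whose array profiles were nearest to Krt6a, Krt16 and Krt17 were looked up over the 4 arrays, with no test. For Krt16 they were Anln, Tpx2 and Shcbp1, at root mean square distances of 0.022, 0.042 and 0.045 log2 units. Anln encodes the cytokinesis protein anillin, and its difference was -0.57, against -0.56 for Krt16. For Krt17 they were Atad5, Vrk2 and Rpa3, at 0.014, 0.025 and 0.034. For Krt6a they were Mns1, Ifi202b and Krt25, at 0.080, 0.11 and 0.17. Close profiles are common over 4 arrays, as 41 genes lay within 0.1 of Krt16 and 113 within 0.1 of Krt17, against 1 within 0.1 of Krt6a.

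Ligands that induce stress keratins in cultured or wounded epidermis showed no common direction with them. Of 18 measured ligands and cytokines, 8 averaged lower and 10 higher in noggin, and the median difference was 0.014. Il1a, the keratinocyte alarm cytokine, was the furthest, at 9.07 and 9.38 in noggin against 8.33 and 8.77 in BMP4, a difference of 0.68 opposite in sign to that of Krt6a. The EGF family ligand Epgn had 7.20 and 6.80 in noggin against 7.97 and 6.95 in BMP4, with overlapping groups and a difference of -0.46 that was 0.05 without BMP4 replicate 1. Btc and Hbegf, of the same family, also overlapped. Btc differed by 0.30, or 0.10 without BMP4 replicate 1, and Hbegf by 0.27, or 0.083 without noggin replicate 1.

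Of 15 receptors for these ligands, 4 averaged lower and 11 higher in noggin, and the median difference was 0.084, or 0.014 without BMP4 replicate 1. Ifngr1, a chain of the interferon-gamma receptor, was the furthest, at 0.47, or 0.28 without noggin replicate 2. The interleukin-22 receptor chain Il22ra1 differed by 0.35 with overlapping groups, and by 0.052 without BMP4 replicate 1. A higher mean in noggin was held by 47.8% of named genes.

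Of 25 transcription factors and regulators linked to stress keratin genes, 6 averaged lower and 19 higher in noggin. The median difference was 0.094, or 0.023 without noggin replicate 1. Fosl1, an AP-1 subunit, had 7.44 and 7.28 in noggin against 6.68 and 6.85 in BMP4, a difference of 0.60 (limma, unadjusted p = 0.0066, adjusted p = 0.736). Nr3c1, the glucocorticoid receptor, which represses stress keratin genes, differed by 0.28. Keap1, the inhibitor of the antioxidant factor NRF2 that acts on Krt6, Krt16 and Krt17 genes, differed by -0.24 with overlapping groups, and by -0.065 without noggin replicate 2 and -0.41 without noggin replicate 1. The 14 measured NRF2 target and antioxidant genes were evenly divided, 7 lower and 7 higher, with Gsta3 at -0.96 and Hmox1 at 0.73.

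Other genes of the activated keratinocyte did not follow the stress keratins as a group. Of 31 measured, 16 averaged lower and 15 higher in noggin, and the median difference was -0.022. The alarmin subunits S100a8 and S100a9 had noggin values above their BMP4 values, S100a8 with 8.71 and 9.51 in noggin against 6.06 and 7.18 in BMP4 and S100a9 with 8.92 and 9.23 in noggin against 6.95 and 7.42 in BMP4. Sprr2d, a small proline-rich envelope protein, differed by 1.98, with 11.60 and 11.38 in noggin against 8.46 and 10.57 in BMP4, and by 0.92 without BMP4 replicate 1 and 3.03 without BMP4 replicate 2. Defb4, a beta-defensin, had 4.38 and 4.08 in noggin against 8.75 and 4.83 in BMP4, so that its difference of -2.55 shrank to -0.59 without BMP4 replicate 1 and reached -4.52 on leaving out BMP4 replicate 2. Genes that share wounding as a stimulus with Krt6a thus lay on both sides of 0, none of them called.

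Proteins that anchor keratin filaments, such as desmosomal plakins and plakophilins, had differences on both sides of 0. Of 14 measured filament partners and linkers, 7 averaged lower and 7 higher, and the median difference was -0.0082, between -0.059 and 0.041 with 1 array left out. The furthest was Vim, vimentin, at 0.37 with overlapping groups, and leaving out BMP4 replicate 1 gave -0.0096, while leaving out BMP4 replicate 2 gave 0.74. All 14 measured BMP response genes averaged lower in noggin, against 52.2% of named genes. The median difference was -0.21, or -0.06 without noggin replicate 2 and -0.38 without noggin replicate 1, and the furthest gene was Bambi, a BMP pseudoreceptor, at -0.80, or -0.50 without BMP4 replicate 1. They did not share the array order of Krt6a, since their median relative to each gene's own mean was 0.05 and -0.28 in noggin against 0.15 and 0.04 in BMP4. Noggin replicate 2 was thus the lowest array for BMP response genes, and noggin replicate 1 the lowest for Krt6a, Krt6b, Krt16 and Krt17. That place was not particular to BMP response genes. By the same median, noggin replicate 2 was also lowest for hair shaft and root sheath keratins (-0.17) and the companion layer and follicle list (-0.19). For proliferation genes the lowest was noggin replicate 1.

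Markers of other cell types ran opposite to the stress keratins in several lists. Of all named genes, 47.8% averaged higher in noggin. Of 12 Langerhans cell and macrophage markers, 11 averaged higher in noggin, with summed linear intensities of 3511 and 3655 in noggin against 1674 and 3022 in BMP4. The exception was H2-Eb1, an MHC class II chain, at 6.37 and 6.43 in noggin against 7.31 and 7.38 in BMP4. All 10 skeletal muscle markers averaged higher in noggin, with sums of 7019 and 3442 in noggin against 1927 and 4361 in BMP4, and all 8 T cell markers did too, with sums of 1174 and 1503 in noggin against 859 and 1196 in BMP4. Of 11 sebaceous gland markers, 10 averaged higher in noggin, with sums of 4605 and 4041 in noggin against 2929 and 3545 in BMP4. BMP4 replicate 1, the array with the highest stress keratins, had the lowest sum in each of these 4 lists. Its sum was also the lowest, in some of them narrowly, for melanocytes, dermal fibroblasts, endothelium, neutrophils, red blood cells and suprabasal and footpad keratinocytes. For basal keratinocytes, the companion layer and follicle list and the hair shaft and nail list, its sum was the highest. For Merkel cells and sweat gland the lowest sum was in noggin replicate 2. With 1 array left out, the median difference of 0.67 for Langerhans cells and macrophages ranged between 0.30 (without BMP4 replicate 1) and 1.06 (without BMP4 replicate 2). For muscle 0.62 became 0.15 or 0.17 on leaving out replicate 1 of noggin or of BMP4, and 1.17 or 1.11 on leaving out replicate 2 of noggin or of BMP4. For sebaceous gland 0.34 became 0.037 or 0.076 on leaving out replicate 1 of noggin or of BMP4, and for T cells 0.31 became 0.47 without BMP4 replicate 2. No marker value is 0 on this scale, and detection is unknown. The part of these differences in the keratin values was not tested.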

How the data were processed

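The 4 pooled samples of laser-captured epidermis were amplified with the NuGEN pico protocol, biotin-labelled and hybridised, per the labels' protocols. The authors deposited log2 probe set intensities, made with Affymetrix Expression Console and RMA per the submitters' processing notes, with no version or settings. RMA equalises the distributions of the arrays and compresses changes of dim probe sets. Scanner files were not used here, and precision is limited by there being 4 arrays.

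Limma 3.58.1 in R 4.3.3 was run on all 35556 probe sets with lmFit and eBayes. The model held the line alone, tests were two-sided, and there were 2 residual and 2.08 prior degrees of freedom, with Benjamini-Hochberg adjustment over all of them and a threshold of 0.05. The code was tested on simulated data. Replicates are pools of different animals. Their numbers were not treated as pairs in the main model. Deviations of same-numbered arrays correlated at -0.12, a single value that cannot show whether such pools were handled together. The 6 genes, gene lists, tests and alternatives were chosen with earlier results of these data known. Beside the 6, all keratins could be named, and from other lists the 4 genes with the largest difference, the 3 nearest profiles of Krt6a, Krt16 and Krt17, and both transgenes. Genes were matched by Entrez identifier. Other marker lists were computed and are described with the closing observations. Figures used matplotlib 3.10.9.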

Additional observations from a re-analysis of the deposited data

How the results depend on the processing

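The differences of Krt6a, Krt6b, Krt16 and Krt17 stayed negative, and no member passed an adjusted p of 0.05, under every alternative run. These were the replicate block, a trended or robust prior, leaving out dim probe sets, median centring, cyclic loess, quantile normalization, averaging the probe sets of each gene, and leaving out each array in turn. The replicate block, the priors, the dim filter and the averaging cannot change the difference of a member, only its p. Median centring shifts every difference by the same small amount. For the sign, only quantile normalization, cyclic loess and leaving out an array are thus informative. The count of probe sets called was 0 under each of these except the averaging of probe sets, where it was not computed, and also with a threshold of 0.1. With the replicate block Krt6a had the same difference of -1.82 and a limma adjusted p of 0.948, and over all its alternatives that p lay between 0.295 and 0.985. Without 1 array the difference ranged from -2.23 to -1.41 for Krt6a, -1.73 to -0.51 for Krt6b, -0.77 to -0.36 for Krt16, -0.55 to -0.12 for Krt17, -0.59 to 0.0075 for Krt75 and -0.11 to 0.12 for Krt76. The median of the 6 ranged from -0.68 to -0.24 and the number lower in noggin from 4 to 6. Krt75 changed sign without BMP4 replicate 1, and Krt76 changed sign without noggin replicate 1 (-0.11) and without BMP4 replicate 2 (-0.10). A fit that leaves out an array assumes that the lone array of that line varies like the other line. Krt76 lies under the limit for dim probe sets and has no value with those left out.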

Other observations

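Krt77, a keratin of sweat ducts in adult skin, varied more between arrays of the same line than between the lines, with log2 values of 8.65 and 7.31 in noggin against 6.94 and 9.50 in BMP4. Atp1b1, a sodium pump subunit on the sweat gland list, had 9.01 and 6.97 in noggin against 6.63 and 6.86 in BMP4. The 12 sweat gland and duct markers were divided 7 lower to 5 higher in noggin, with summed linear intensities of 2442 and 1596 in noggin against 1631 and 2255 in BMP4. Neither line had 2 high arrays for that list, and its sums did not follow the order of Krt6a.

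The median difference was -0.0031 for Merkel cells, 0.060 for melanocytes, 0.041 for dermal fibroblasts, 0.14 for endothelium, 0.033 for neutrophils and 0.091 for 2 measured red blood cell genes. Without BMP4 replicate 1 it was -0.028 for melanocytes, -0.16 for dermal fibroblasts, 0.015 for endothelium and 0.12 for neutrophils. Of the 10 neutrophil markers, 5 averaged lower and 5 higher in noggin. The higher ones include S100a8 and S100a9, which keratinocytes also make. The remaining genes lay on both sides of 0 and included Camp at -0.19 and Ngp at -0.16. Among 19 close relatives of the stress keratins by sequence or position, 13 averaged lower in noggin, against 52.2% of named genes. The median difference was -0.053, which turned to 0.025 without noggin replicate 2 and was -0.13 without noggin replicate 1, and Krt73, a root sheath keratin, was the furthest at -0.71.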
